A study of Arabidopsis thaliana with 10 samples.

Results

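Described here are 37 probes of a flower-enriched Arabidopsis cDNA array that lay on the positive side of the log ratio at 4, 8, 10 and 16 h after plants carrying an inducible AGAMOUS protein were treated with dexamethasone. The 37 were drawn from 10816 probes, of which 10523 were measured on all 8 arrays of these hours, so that they made up 0.352% of the probes that could qualify. A probe qualified if the mean of the 2 arrays of a time, after both had been turned to run the same way, was at or above 0.15 at each of the 4 times. That threshold is 1.41-fold if the deposited log ratios are in base 10, which the files do not state. Probes whose 2 deposited, unturned 0 h values were both at least 0.15 in size and of 1 sign were to be left out. On the positive side 0 probes met that condition. The treated arrays thus chose the members, and their values at 4 to 16 h are given below as a description.

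AGAMOUS is a MADS-domain transcription factor of floral organ identity. It specifies stamens and carpels, restricts the genes of sepals and petals and ends the activity of the floral meristem, so that flowers without it repeat sepals and petals. Fusion of a transcription factor to the steroid-binding domain of the glucocorticoid receptor (GR) holds it in the cytoplasm until a steroid such as dexamethasone is given, after which the targets of the factor can be followed over hours.

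All plants were of the genotype ag-1;35S::AG-GR, which carries a loss-of-function allele of AGAMOUS together with the fusion under the 35S promoter, a viral promoter active in most plant tissues. RNA of inflorescences that had received dexamethasone was hybridised together with RNA of inflorescences that had received a control solution equally long, on 10 arrays, 2 for each of 0, 4, 8, 10 and 16 h. By the labels, dexamethasone RNA was in channel 1 on the arrays numbered 1 and in channel 2 on those numbered 2. Whether a pair of arrays shared plants or RNA is not stated, so that the spread between them, and the p-values below, may be technical. Plants without the fusion or with a working AGAMOUS gene were not analysed here, and an effect of dexamethasone alone cannot be told apart from that of AG-GR.

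Between 10128 and 10670 probes were measured per array. Values are signed log ratios of the channels, with the sign of the arrays numbered 2 changed, which is called turning here. The numerator channel is not stated, so that the positive side may hold transcripts that were higher or lower with dexamethasone. It was also not settled by the data that the turning is right: over all measured probes the 2 turned arrays of a treated time correlated at -0.167 to -0.0233. The first 0 h array stood apart, with r of -0.0344 to 0.0442 against the other 9. Arrays numbered 1 were also broader than those numbered 2, with SDs over probes of 0.153 to 0.176 at the treated times, against 0.110 to 0.124. No table used here gives the gene behind a probe, so that no gene is named and the AGAMOUS pathway lists could not be examined. Probes are called by their identifiers, in which GP001F5 is read as plate 001, row F, column 5.

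The members formed a moderate group on the positive side from 4 h on, with the lowest mean at 4 h. Their mean turned log ratio over the 2 arrays of a time was -0.00573 ± 0.0107 for 0 h, then 0.193 ± 0.0879, 0.259 ± 0.119, 0.230 ± 0.0960 and 0.241 ± 0.137 for 4, 8, 10 and 16 h (SD, n = 2 arrays each). In folds, which assume base 10, the treated means were 1.56, 1.81, 1.70 and 1.74. The rule required its threshold at 4 h as at the later times, so that a 4 h level near the later ones was partly set by the choice of members. The later times differed from each other by less than the SD between the 2 arrays. That SD includes the higher mean of the array numbered 1, which was present at all 4 treated times. It therefore cannot decide whether the levels of the times differed. With every array scaled to the same median absolute log ratio, a setting applied to these levels after the data were seen, the members' means were 0.176 ± 0.0162, 0.229 ± 0.0600, 0.205 ± 0.0397 and 0.207 ± 0.0425 for 4, 8, 10 and 16 h (SD, n = 2 arrays each). Over the 4 treated times, single members averaged between 0.169 and 0.309 with a median of 0.236, or 1.47-fold to 2.04-fold (median 1.72-fold). Of the 37, 1 exceeded 2-fold in this mean. The median of all measured probes was 0.000195.

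**Figure D1:**
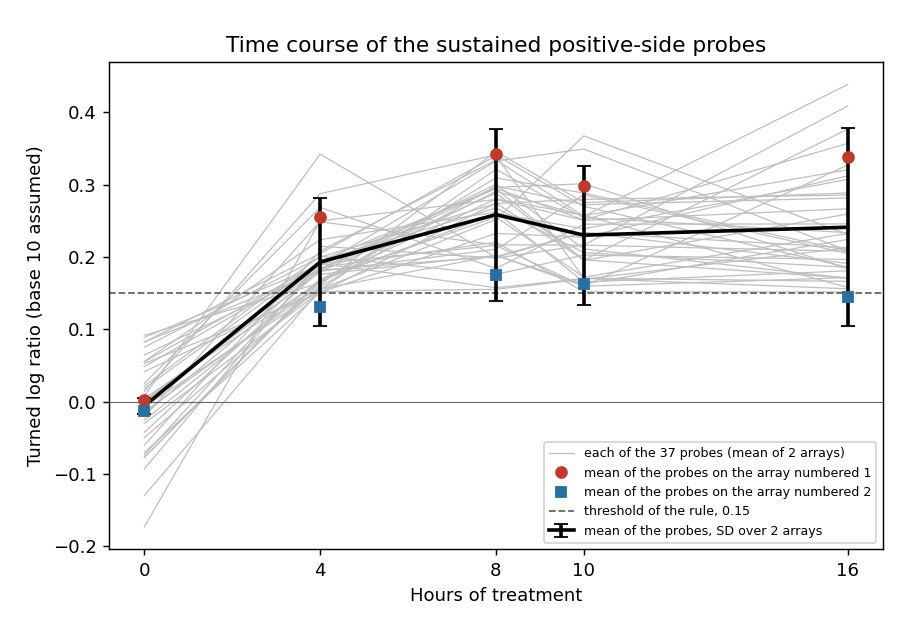
Turned log ratio (vertical axis, base 10 assumed) against hours of treatment (horizontal axis) for the 37 probes, as grey lines of the mean of 2 arrays, with the mean over probes in black (bars: SD over 2 arrays) and its value on each array as red circles (numbered 1) and blue squares (numbered 2). The probes lie around 0 at 0 h and above the dashed threshold of 0.15 at every treated time, and the array numbered 1 gives the higher mean at all 4 treated times.

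For 16 members the highest of the 4 times was 8 h, for 11 it was 16 h, for 7 it was 10 h and for 3 it was 4 h. The lowest was 4 h for 21 members, 16 h for 8, and 8 h and 10 h for 4 each. At 4 h the members spanned 0.151 to 0.342 with a median of 0.183. The span at 8 h was 0.155 to 0.346 with a median of 0.268, at 10 h it was 0.152 to 0.367 with a median of 0.234, and at 16 h it was 0.152 to 0.438 with a median of 0.213. The lower ends were set by the threshold. Reaching 0.15 at a single time was more frequent, with 3.35%, 4.60%, 5.19% and 5.72% of all measured probes at 4, 8, 10 and 16 h.

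Probes that held the negative side by the mirror of the rule numbered 79, after 18 of 97 had been left out for their 0 h values, against 37 and 0 left out on the positive side. The negative side was also farther from 0, with a median treated mean of -0.298 (1.99-fold) and 36 of 79 probes at 2-fold or more, against 0.236 and 1 of 37. Its mean was -0.205 ± 0.0885 at 4 h and -0.378 ± 0.160 at 16 h (SD, n = 2), and 4 h was the time nearest to 0 for 71 of 79 probes, against 21 of 37 on the positive side. A further 48 probes reached 0.15 at 8, 10 and 16 h but not at 4 h. These sets were chosen by their values on the same arrays, and the differences between them are not tested.

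Between 4 and 16 h the members ran in both directions. The rule used the values of both times and required 0.15 at each, so that their difference is given as a description, with no test on the members. The difference of 16 h minus 4 h had a median of 0.0247 over members, against 0.00239 over all probes, and ran from -0.129 to 0.230. It was above 0 for 23 of 37 members, against 51.2% of all probes. With every array scaled to the same median absolute log ratio, its median over members was 0.0131, and it was above 0 for 22. Over 10565 probes, 0 (0%) passed an adjusted p of 0.05 by limma with Benjamini-Hochberg adjustment, and 123 (1.16%) stood at an unadjusted p under 0.05. On the arrays numbered 1 the 16 h value exceeded the 4 h value for 29 members with a median difference of 0.0988, and on those numbered 2 for 19 with a median of 0.00032.

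At 0 h, where dexamethasone and control solution had acted for no time, the members lay on both sides of 0. The rule used the 0 h values as deposited, not turned, and only to leave probes out. It left out none of the positive side. Of the 37, 35 were measured on both 0 h arrays, and their turned mean ran from -0.173 to 0.0917 with a median of 0.00109. On the first 0 h array the lowest, median and highest values were -0.154, 0.00968 and 0.0998, and on the second they were -0.192, -0.00715 and 0.308. By limma, 0 of 35 members and 0 of 9912 probes (0%) passed an adjusted p of 0.05 at 0 h, and 0 of 35 against 1.98% of all probes stood at an unadjusted p under 0.05. With the array number as a block these were also 0 of 35, against 0% adjusted and 4.97% unadjusted. The lowest treated time lay above the 0 h mean in 35 of the 35 members, which the choice of members largely fixes. For GP005G8 and GP112C9 the first 0 h value was at the limit of 2 and was treated as not measured.

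Across the 2 orientations of the channels the members were uneven. Of the 37, 26 were positive on all 8 treated arrays, against 2.23% of all measured probes, 9 on 7 arrays, 1 on 6 and 1 on 5. All 37 were positive on every treated array numbered 1. On the arrays numbered 2, 33, 36, 33 and 32 were positive at 4, 8, 10 and 16 h, and these are also the numbers positive on both arrays of the time, against 21.0%, 22.8%, 21.5% and 20.5% of all probes. The rule used these arrays, and nothing is read from the counts.

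The mean over the 4 arrays numbered 1 exceeded that over the 4 numbered 2 in 30 of 37 members, against 56.2% of all probes. The median difference of number 1 minus number 2 was 0.173 for members and 0.0238 for all probes. With scaled arrays it was 0.0624 over members, and 25 of 37 had the larger mean on number 1. On the arrays numbered 1, the members' means over probes were 0.255, 0.343, 0.298 and 0.338 at 4, 8, 10 and 16 h. On those numbered 2 they were 0.131, 0.174, 0.162 and 0.144. The arrays numbered 1 alone would have put 27 of the 37 at or above 0.15 at all 4 times, those numbered 2 alone 9, and 4 met it on neither. Of all 10523 measured probes, 292 met it on the arrays numbered 1 and 64 on those numbered 2. The rule used these arrays, and nothing is read from the members' counts. The greater breadth of the arrays numbered 1, given above, moved with the difference between the numbers, and its part in it was not tested. When every array was scaled to the same breadth before the rule was applied, 18 probes qualified, 17 of them among the 37.

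**Figure D2:**
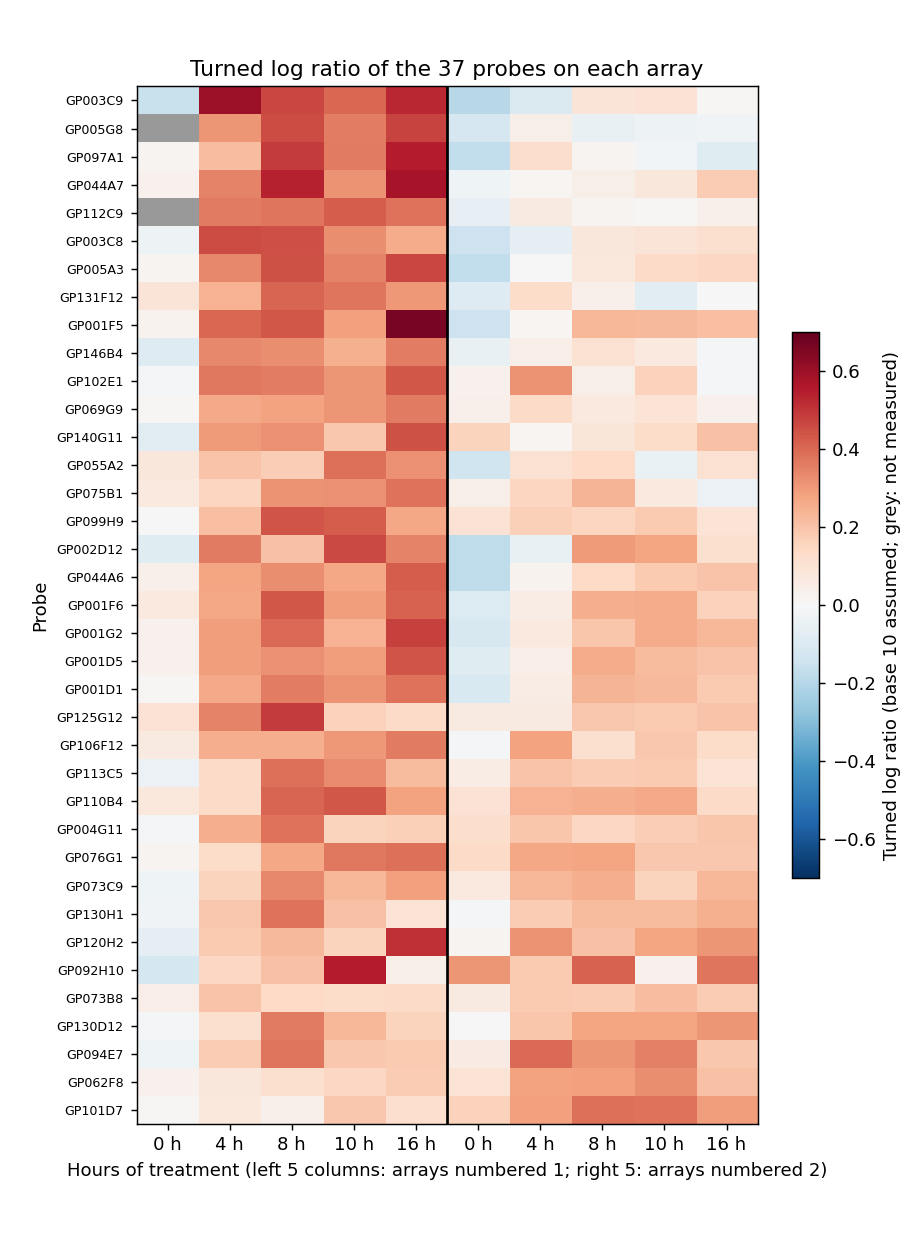
Turned log ratio (colour, base 10 assumed) of each of the 37 probes (rows) on each array (columns, hours of treatment), with the arrays numbered 1 left of the line and those numbered 2 right of it. Probes run from the largest excess of number 1 over number 2 (GP003C9, 0.474) at the top to the largest excess of number 2 (GP101D7, -0.235) at the bottom, and all 37 are positive on the treated arrays numbered 1.

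Only 3 of all 10523 measured probes reached 0.15 on each of the 8 treated arrays, and they are members: GP073C9, GP094E7 and GP120H2. GP120H2 had 0.184, 0.227, 0.157 and 0.509 on the arrays numbered 1 and 0.313, 0.207, 0.276 and 0.308 on the arrays numbered 2 at 4, 8, 10 and 16 h. Its 16 h value on the array numbered 1 stood above the other 7. The mean was 0.273 ± 0.111 (SD over 8 treated arrays, 1.87-fold), and the 0 h values were -0.0612 and 0.0192 on the first and the second 0 h array. GP094E7 had 0.178, 0.375, 0.188 and 0.181 on the arrays numbered 1 and 0.397, 0.307, 0.352 and 0.191 on the arrays numbered 2, with a mean of 0.271 ± 0.0961 (1.87-fold). Its pair means were 0.288, 0.341, 0.270 and 0.186 at 4, 8, 10 and 16 h, lowest at 16 h. On the arrays numbered 1 the 4 h value was no higher than that of 16 h. For GP073C9 the values were 0.154, 0.335, 0.235 and 0.288 on the arrays numbered 1 and 0.234, 0.254, 0.156 and 0.231 on the arrays numbered 2, with a mean of 0.236 ± 0.0609 (1.72-fold). The 0 h values of the 3 lay between -0.0612 and 0.0690, below all their treated values, which the choice of these probes largely fixes.

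The most even members were those with the largest ratio of mean to SD over the 8 treated arrays, which ran from 0.830 to 5.15 over the 37. GP073B8 led with 0.202, 0.140, 0.126 and 0.132 on the arrays numbered 1 and 0.181, 0.175, 0.215 and 0.180 on the arrays numbered 2. Its mean of 0.169 ± 0.0328 (1.47-fold) was the lowest of the 37, and its 8 values lay closer together than those of any other member. In the same plate, 1 row and 1 column away, GP073C9 came next, but over the 8 treated arrays these 2 probes ran opposite to each other (r = -0.792). GP130D12 had 0.114, 0.366, 0.233 and 0.158 on the arrays numbered 1 and 0.195, 0.276, 0.275 and 0.310 on the arrays numbered 2 (mean 0.241 ± 0.0828, 1.74-fold). Its pair mean was highest at 8 h with 0.321. GP076G1 had 0.127, 0.271, 0.371 and 0.385 on the arrays numbered 1 and 0.273, 0.277, 0.188 and 0.186 on the arrays numbered 2 (mean 0.260 ± 0.0902, 1.82-fold). Its pair means were 0.1996, 0.274, 0.280 and 0.286 at the 4 times. They were level from 8 h on only because the arrays numbered 1 rose while those numbered 2 fell.

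A second outline among the members was a top at 8 and 10 h. GP110B4 had 0.132, 0.409, 0.435 and 0.281 on the arrays numbered 1 and 0.245, 0.256, 0.263 and 0.137 on the arrays numbered 2, and its pair means were 0.189, 0.333, 0.349 and 0.209. Both arrays were higher at 8 and 10 h than at 4 and 16 h in this probe. GP099H9 had pair means of similar outline, 0.188, 0.296, 0.301 and 0.184, and GP113C5 had 0.166, 0.280, 0.258 and 0.158. In both probes the arrays numbered 1 were higher at 8 and 10 h than at 4 and 16 h, but those numbered 2 were not. On the arrays numbered 2, GP113C5 was highest at 4 h, with 0.198, 0.176, 0.184 and 0.0968 over the 4 times. GP099H9 had 0.165 at 4 h on that number, a lower value at 8 h, and 0.181 at 10 h. GP125G12 had its top at 8 h on the arrays numbered 1 but not on those numbered 2, with 0.348, 0.489, 0.160 and 0.131 on the arrays numbered 1 and 0.0621, 0.190, 0.181 and 0.201 on the arrays numbered 2. Its pair means of 0.205, 0.340, 0.171 and 0.166 had a top at 8 h alone. GP102E1, in contrast, had its highest pair mean at 4 h, with 0.342, 0.199, 0.234 and 0.213 over the 4 times. Its difference of 16 h minus 4 h was the most negative of the 37, -0.129. It had 0.369, 0.360, 0.309 and 0.433 on the arrays numbered 1 and 0.315, 0.0386, 0.159 and -0.00779 on the arrays numbered 2. The top at 4 h was thus on the arrays numbered 2 only, and those numbered 1 were highest at 16 h.

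In 7 members the arrays numbered 2 carried the larger mean. GP101D7 was the farthest in this direction, with 0.0733, 0.0336, 0.189 and 0.116 on the arrays numbered 1 and 0.287, 0.387, 0.382 and 0.294 on the arrays numbered 2, and its 0 h values were 0.00583 and 0.160 on the first and the second 0 h array. The value on the second 0 h array was thus already above 3 of its 4 treated values on arrays numbered 1. GP062F8 had 0.0791, 0.114, 0.144 and 0.178 on the arrays numbered 1 and 0.284, 0.287, 0.324 and 0.204 on the arrays numbered 2, and its pair means of 0.182, 0.201, 0.234 and 0.191 were nearly level. GP092H10 was the least orderly, with 0.147, 0.203, 0.548 and 0.0437 on the arrays numbered 1 and 0.182, 0.415, 0.0281 and 0.373 on the arrays numbered 2 and 0.308 on the second 0 h array. High and low values alternated between its arrays, and at 10 h the order of the numbers was opposite to that at 4, 8 and 16 h.

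At the other end stood members whose value rests on the arrays numbered 1. GP003C9 had 0.6003, 0.468, 0.3997 and 0.526 on the arrays numbered 1 and -0.101, 0.0910, 0.101 and 0.00726 on the arrays numbered 2. The arrays numbered 2 lay near 0, on both sides of it, and the mean of 0.262 ± 0.266 was smaller than its SD. GP005G8 had 0.311, 0.458, 0.360 and 0.471 on the arrays numbered 1 and 0.0415, -0.0536, -0.0348 and -0.0228 on the arrays numbered 2, so that 3 of its 4 values on arrays numbered 2 were negative, and GP097A1 had 0.213, 0.489, 0.364 and 0.551 on the arrays numbered 1 and 0.126, 0.0212, -0.0193 and -0.0855 on the arrays numbered 2, with 2 negative. GP112C9 had 0.365, 0.376, 0.424 and 0.378 on the arrays numbered 1 and 0.0647, 0.0211, 0.00898 and 0.0378 on the arrays numbered 2. In these 4 probes no treated value on an array numbered 2 reached 0.15. The same held for GP131F12, GP003C8, GP005A3, GP055A2, GP069G9 and GP146B4. GP131F12 had 0.243, 0.405, 0.375 and 0.303 on the arrays numbered 1 and 0.128, 0.0362, -0.0711 and 0.000320 on the arrays numbered 2, with a mean of 0.177 ± 0.180.

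Between these ends lay members that were positive throughout or negative on a single array. GP004G11 had 0.256, 0.378, 0.158 and 0.167 on the arrays numbered 1 and 0.192, 0.147, 0.173 and 0.195 on the arrays numbered 2, and GP106F12 had 0.256, 0.254, 0.304 and 0.364 on the arrays numbered 1 and 0.281, 0.114, 0.187 and 0.127 on the arrays numbered 2. Both were larger on number 1, with number 1 minus number 2 at 0.0628 and 0.118. GP130H1 had 0.190, 0.378, 0.203 and 0.0949 on the arrays numbered 1 and 0.177, 0.222, 0.220 and 0.246 on the arrays numbered 2. Its pair mean was highest at 8 h, like that of GP130D12 in the same plate (r = 0.825 over the 8 treated arrays). On the arrays numbered 2 both probes were highest at 16 h. GP069G9 had 0.268, 0.281, 0.310 and 0.365 on the arrays numbered 1 and 0.134, 0.0710, 0.0954 and 0.0287 on the arrays numbered 2, all positive but smaller on the arrays numbered 2. GP146B4 was negative only on the 16 h array numbered 2, with 0.0473, 0.107, 0.0691 and -0.0126 on that number against 0.334, 0.325, 0.250 and 0.356 on number 1. GP055A2 was negative only on the 10 h array numbered 2, where it had -0.0447, against 0.383 on number 1, its highest value. GP002D12 was negative only on the 4 h array numbered 2, with -0.0545, and had 0.155, 0.252, 0.367 and 0.231 as its pair means, the highest of any member at 10 h. GP075B1 had 0.152, 0.314, 0.323 and 0.382 on the arrays numbered 1 and 0.149, 0.235, 0.0694 and -0.0394 on the arrays numbered 2, so that the 2 numbers agreed at 4 h and parted by 16 h.

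**Figure D3:**
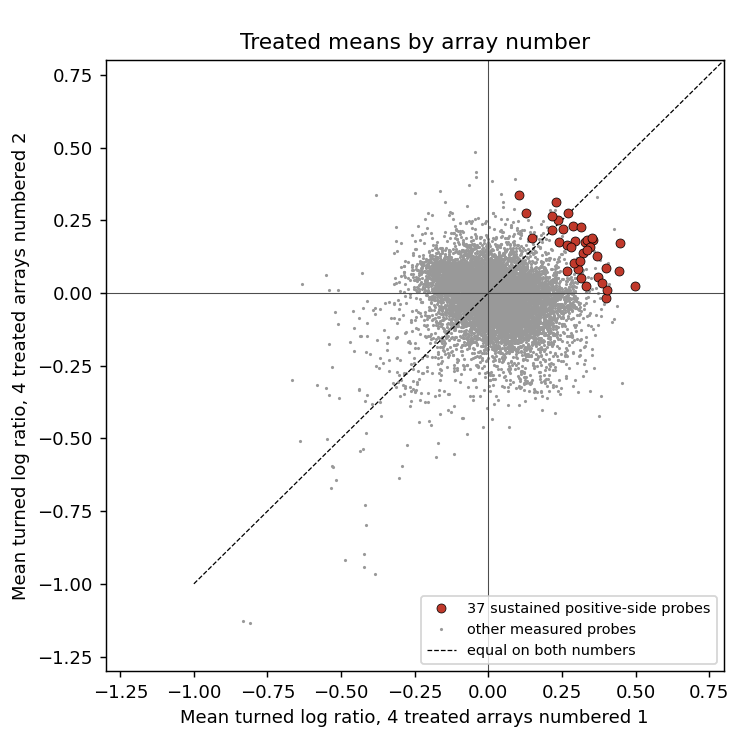
Mean turned log ratio over the 4 treated arrays numbered 1 (horizontal axis) and over the 4 numbered 2 (vertical axis), both with base 10 assumed, for the 37 members (red) and the other measured probes (grey), with the line of equal values dashed. Of the 37, 30 lie below the line, and the members range from near 0 on the vertical axis to values as large as on the horizontal one.

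The members also differed among themselves on the 0 h array numbered 2. It was negative after turning for 20 of 37, against 54.4% of all probes. Those 20 had a median of 0.349 (range 0.216 to 0.499) on the treated arrays numbered 1 and of 0.113 (range -0.0174 to 0.264) on those numbered 2. The 17 that were positive on it had a median of 0.269 (range 0.103 to 0.368) on number 1 and of 0.188 (range 0.0824 to 0.338) on number 2. Over the 37 members, the value deposited for that array correlated at 0.655 with the mean of the treated pairs left unturned, and over 10504 measured probes at 0.573. Its turned value correlated with the turned treated mean at -0.0743 over members and at 0.0598 over all probes. These correlations are across probes of the same arrays, which are not independent. The unturned mean is where a dye effect of a probe would lie, and its part in the members' values was not tested.

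By position, the members came from 28 of 114 plates, with more than 1 member in 6 plates. Plate 001 held 5 of them, GP001D1, GP001D5, GP001F5, GP001F6 and GP001G2, which is 13.5% of the members, where the plate holds 0.893% of the measured probes (94). The plate as a whole did not lie on the positive side: the median treated mean of its probes was -0.00688, within the range of plate medians of -0.0342 to 0.0833. Plates 003, 005, 044, 073 and 130 held 2 members each. Plates 002 and 004 were among those with 1, so that each of plates 001 to 005 held a member.

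The 5 probes of plate 001 ran alike over the arrays, and lay farthest apart on the 16 h array numbered 1. GP001F5 was the highest of them on the arrays numbered 1 at 4 and 16 h. At 4 h they lay between 0.265 and 0.4001 on the array numbered 1 and between 0.0163 and 0.0710 on that numbered 2. The 8 h values were 0.322 to 0.437 and 0.195 to 0.260, the 10 h values 0.243 to 0.316 and 0.223 to 0.259, and the 16 h values 0.379 to 0.664 and 0.163 to 0.234, each time number 1 first. At 0 h they were 0.00968 to 0.0682 on the first array and -0.147 to -0.0834 on the second. All 5 were thus low on the array numbered 2 at 4 h and higher on it from 8 h on, while on the arrays numbered 1 they were high from 4 h.

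Over the 8 treated arrays the 10 pairs among these 5 correlated at 0.885 to 0.971 with a median of 0.924, and at 0.740 to 0.939 with a median of 0.842 once the values were centred within each array number. Pairs of members from different plates had medians of 0.397 and 0.107 over 651 pairs. Pairs of the other measured probes of plate 001 had medians of 0.362 and 0.0403 over 3916 pairs. The points share the arrays and their dye orientation, and 8 of them carry each correlation. The files do not say whether the 5 probes are clones of 1 transcript, so that the 37 may count fewer than 37 transcripts.

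**Figure D4:**
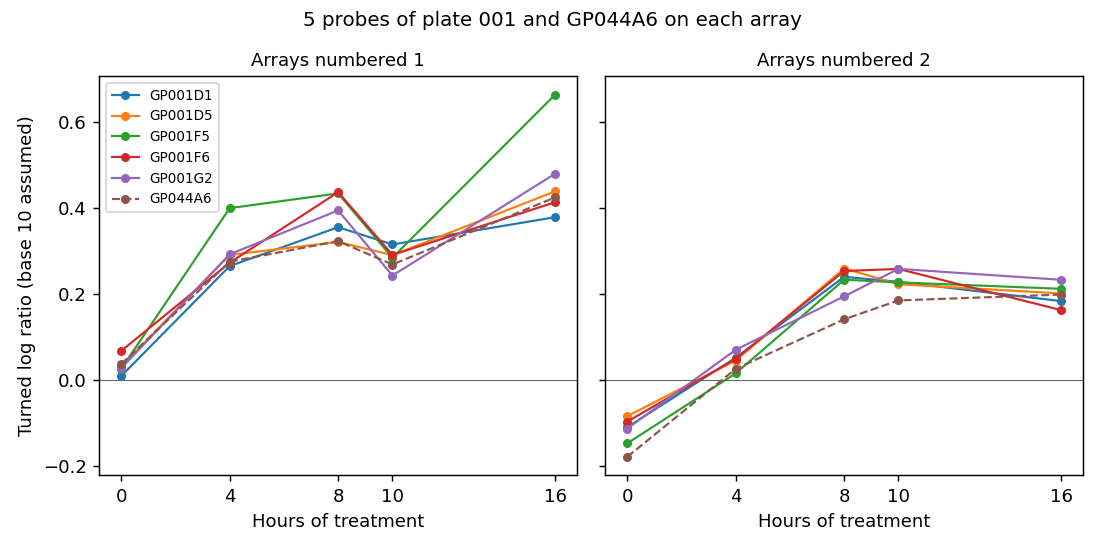
Turned log ratio (vertical axis, base 10 assumed) against hours of treatment (horizontal axis) of the 5 members of plate 001 (solid lines) and GP044A6 (dashed), on the arrays numbered 1 (left) and 2 (right). The 6 lines run alike on both sides, near 0 on the first 0 h array and below 0 on the second. GP001F5 stands above the others at 4 and 16 h on the left, and reaches 0.664 at 16 h.

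GP001F5 was the member with the highest mean, 0.309 ± 0.192 (SD over 8 treated arrays, 2.04-fold), from 0.4001, 0.434, 0.285 and 0.664 on the arrays numbered 1 and 0.0163, 0.234, 0.228 and 0.213 on the arrays numbered 2. Its value on the 16 h array numbered 1 was the highest of any member on any array. GP001G2 had 0.293, 0.395, 0.243 and 0.480 on the arrays numbered 1 and 0.0709, 0.195, 0.259 and 0.234 on the arrays numbered 2 (mean 0.271 ± 0.124, 1.87-fold). GP001F6, in the well next to GP001F5, had 0.273, 0.437, 0.291 and 0.414 on the arrays numbered 1 and 0.0498, 0.254, 0.259 and 0.163 on the arrays numbered 2 (mean 0.268 ± 0.125, 1.85-fold). The remaining 2 had means of 0.259 ± 0.112 (GP001D5, 1.82-fold) and 0.253 ± 0.104 (GP001D1, 1.79-fold). In each of the 5, both arrays of every treated time were positive.

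Outside plate 001, the probe nearest to the mean profile of the 5 among the other 10518 measured probes, by root mean square distance over the 8 treated arrays, was the member GP044A6 (r = 0.971, and 0.932 centred by array number). It had 0.276, 0.323, 0.269 and 0.425 on the arrays numbered 1 and 0.0267, 0.142, 0.186 and 0.199 on the arrays numbered 2, and 0 h values of 0.0377 and -0.178 on the first and the second 0 h array, of which the second lay below the range of the 5. Next came GP001G3, in the same plate and beside the well of GP001G2, which missed the rule at 4 h with 0.125 and had 0.280, 0.256 and 0.432 later. GP005A4 missed it in the same way with 0.127 at 4 h, and its neighbour GP005A3 is a member with pair means of 0.167, 0.260, 0.239 and 0.307. GP140G11, also a member, followed with 0.156, 0.202, 0.160 and 0.327. Over the 32 members of other plates, r with this profile ran from -0.649 to 0.971 with a median of 0.497, against a median of 0.125 over all other probes, so that the 37 did not share 1 profile. GP001G3 and GP005A4 were named after their values were seen.

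Neighbouring wells held 3 pairs of members, GP001F5 with GP001F6, GP003C8 with GP003C9, and GP044A6 with GP044A7. GP003C8 had 0.456, 0.453, 0.323 and 0.259 on the arrays numbered 1 and -0.0662, 0.0820, 0.0887 and 0.112 on the arrays numbered 2, an outline like that of GP003C9 given above (r = 0.928, and 0.545 centred by number). GP044A7 had 0.345, 0.537, 0.315 and 0.576 on the arrays numbered 1 and 0.0136, 0.0398, 0.0766 and 0.178 on the arrays numbered 2 and correlated with GP044A6 at 0.936, or 0.794 centred by number. Its values on arrays numbered 1 were larger than those of GP044A6 at each of the 4 treated times. The wells flanking these pairs in their rows had treated means of -0.0660 (GP001F4), 0.0709 (GP001F7), 0.0388 (GP003C7), 0.183 (GP003C10), -0.0890 (GP044A5) and -0.0301 (GP044A8), so that 1 of the 6 was at the level of the members. Neighbouring wells may not count as separate measurements.

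The rule's threshold passes through a continuous range of values. Just inside stood GP075B1, GP044A6 and GP131F12, whose lowest times were 0.151, 0.151 and 0.152. Just outside stood GP080D10, GP127G8 and GP002G11, whose lowest times were 0.147, 0.147 and 0.146. GP002G11, left outside at 8 h, had 0.189, 0.114, 0.156 and 0.225 on the arrays numbered 1 and 0.160, 0.178, 0.195 and 0.213 on the arrays numbered 2 and was more even than 36 of the 37 members. With a threshold of 0.1, 158 probes qualified, and with 0.2, 3 did (GP001F5, GP003C9 and GP120H2).

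In the model fitted to all arrays (limma, 1 coefficient per time), the mean of the 4 treated times passed an adjusted p of 0.05 for 21 of the 37 members, against 1.8% of 10523 probes, or 0.551% on the positive side. With the array number as a block 37 of 37 passed, against 8.6%, or 4.28% on the positive side. The rule used this contrast, and nothing is read from these counts. The 16 members that passed only with the block include GP003C9, GP005G8 and GP097A1, in which the 2 numbers differ most. Of the 21, 20 were positive on all 8 treated arrays and GP002D12 was positive on 7. Leaving out the 4 h array numbered 1 left 13 members called, the 4 h array numbered 2 left 10, the 8 h array numbered 1 left 5, the 10 h arrays numbered 1 and 2 left 5 and 6, and the 16 h array numbered 1 left 7. With the treated arrays alone 17 were called, and with arrays numbered 2 left unturned 0 were.

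At single times, 0 members passed an adjusted p of 0.05 at 4, 8, 10 and 16 h by limma, against 0% of all probes on the positive side. At an unadjusted p under 0.05 stood 14, 23, 20 and 21 of the 37, all positive, against 1.29%, 2.0%, 2.07% and 1.85% of all probes on that side. The rule required a positive mean of at least 0.15 at each of these times and so used the same values, and nothing is read from the counts of this paragraph. With the block, GP001F6 passed at 8 h, against 0.00947% of probes on the positive side, and 6 members at 16 h, against 0.123%. These 6 were GP001D5, GP001F5, GP001G2, GP005A3, GP044A6 and GP120H2, of which 3 lie in plate 001. For the treated mean minus 0 h, 0 of 35 members passed, against 0% of 9859 probes, and 17 stood on the positive side at an unadjusted p under 0.05, against 0.923%. Over members this difference ran from 0.113 to 0.435 with a median of 0.233, and its standard error had a median of 0.0980.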

How the data were processed

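Inflorescence RNA was hybridised to 10 cDNA arrays of 2 channels. The authors deposited signed log ratios of the channels, read here as log10: they end at 2 and -2, a ratio of 100 in base 10 but of only 4 in base 2. Each of dyes, scanner, background correction, normalization and numerator is not given in the sources used here. Signal over background is unknown.

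Values of exactly 2 or -2 were treated as not measured, and arrays numbered 2 changed sign. The tests used limma 3.58.1 (R 4.3.3; lmFit, eBayes, 1 coefficient per time, all 10 arrays) and were two-sided. Benjamini-Hochberg adjustment ran over the probes measured on at least 8 arrays, including both of any time in the contrast, with a threshold of 0.05. The fit was tested on simulated data. Summaries used pandas 2.3.3 and numpy 2.4.6, plots matplotlib 3.10.9. The array number marks the channel orientation, and the unturned pair means of any 2 times correlated at 0.252 to 0.549, so that arrays of 1 number were treated as paired in the fit with the block.

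Members and lists were chosen with earlier results of these data known. Named probes are the 10 members with the largest mean among those positive on all 8 treated arrays, the 5 with the largest ratio of mean to SD, 3 on each side of the threshold, and members in neighbouring wells. Members described beside these were chosen after their values were seen. The table of gene names matched no probe identifier, so that gene lists were not used here.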

Additional observations from a re-analysis of the deposited data

How the results depend on the processing

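The number of members went to 158 with a threshold of 0.1, 3 with 0.2, 18 with scaled arrays (17 of them among the 37) and 120 with arrays numbered 2 left unturned (the other orientation), of which 1, GP112C9, is among the 37. It was 39 with the limit values kept and 37 with no exclusion at 0 h. Of the members, 21 were called for the treated mean. This count was 37 with the array number as a replicate block, 21 with scaled arrays, 0 with the other orientation and 5 to 20 when single arrays were left out. Over all probes the treated mean gave 189 calls, 905 with the replicate block, 88 with the limits kept, 148 with scaled arrays, 987 with the other orientation, 130 with the treated arrays alone (chosen after seeing the data) and 41 to 147 with single arrays left out. It fell to 49 without the 4 h array numbered 2, to 51 and 74 without the 8 h arrays numbered 1 and 2, to 62 and 41 without the 10 h arrays numbered 1 and 2, and to 71 without the 16 h array numbered 1.

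Single times gave 0 calls over all probes, and 1 at 16 h. With the replicate block there were 22 at 8 h, 2 at 10 h, 48 at 16 h and 1 for the treated mean minus 0 h. With the limits kept there were 2 at 0 h, 0 at 16 h and 2 for the treated mean minus 0 h. At 16 h scaled arrays gave 4 and the other orientation 0. With single arrays left out the counts were 0 to 70 at 0 h, 0 to 1 at 4 h, 0 to 4 at 8 h, 0 to 1 at 10 h, 0 to 5 at 16 h, 0 to 72 for the treated mean minus 0 h and 0 to 1 for 16 h minus 4 h. The counts of 70 and 72 were those without the second 0 h array, where the lone 0 h array is assumed to vary like the others.

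The means of the 21 named probes kept their sign with scaled arrays and on either array number alone. Neither setting can change the sign of a probe that is positive on all 8 treated arrays. Of the 21, 10 were chosen among such probes. GP073B8, GP073C9, GP130D12, GP044A6 and GP002G11 were also positive on all 8. Nothing is read from the sign of any of these probes. GP005G8, a member outside the 21, had a mean of -0.0174 on the arrays numbered 2. With the other orientation 6 of the 21 changed sign, to -0.00332 (GP120H2), -0.0409 (GP094E7), -0.0189 (GP073B8), -0.0231 (GP130D12), -0.147 (GP080D10) and -0.00766 (GP002G11). The cause of these changes was not tested, except that another threshold or fewer arrays act by construction. The number of arrays limits the precision.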

Other observations

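In the rows of their plates, the members had 54 measured neighbouring wells that were no members. Their treated means ran from -0.171 to 0.273 with a median of 0.0156. Of the 54, 5 (9.26%) were at or above 0.15, against 200 (1.90%) of all measured probes, which include the members. These 5 were GP001G3, GP002D11, GP003C10, GP005A4 and GP005G9, all of plates 001, 002, 003 and 005, and none lay on another plate. The highest of the 54 was GP001G3. The files do not say what neighbouring wells share.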
